A study of Mus musculus with 3 samples.

Results

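Transcripts of 7 cytokine genes (Ccl5, Ccl3, Ccl4, Xcl1, Ltb, Il12a and Tgfb1) were followed in single cells of 3 populations sorted from mouse bone marrow. They are 7 of the 27998 genes in the tables, of which 16403 had at least 1 UMI (unique molecular identifier, a count of original transcripts) in a kept cell. The genes were found by symbol. They had been chosen by their levels and their spread over cells in these same libraries, so the values below are descriptions and none carries a test. ILCpro_KO held progenitors of innate lymphoid cells (ILCs) from Tcf7EGFPnull/- mice, whose Tcf7 alleles, coding for the transcription factor TCF-1, are both null. ILCpro_WT held cells of the same gate (Lin- Kit+ 2B4+ a4b7+ Tcf7+) from Tcf7EGFP/+ mice. ALP held all-lymphoid progenitors, an earlier and less committed stage, from Tcf7EGFP/+ mice, with the gate Lin- Kit+ 2B4+ a4b7-, Flt3high and IL-7Ra+. All mice were on the C57BL/6 background, all carry at least 1 reporter allele at Tcf7, and "WT" therefore means heterozygous for the reporter. The labels give neither age nor sex and do not say whether animals were pooled. Each group is 1 library of 10x Chromium v2 chemistry, so animal, library and group cannot be told apart, no difference has a replicate check, and intervals cover counting error only.

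Chemokines such as Ccl5, Ccl3 and Ccl4 attract leukocytes, and Xcl1 (lymphotactin) attracts dendritic cells (DCs) that carry Xcr1. Natural killer (NK) cells, memory T cells and mature ILCs store or quickly make such chemokines. Ltb encodes lymphotoxin beta, which is anchored in the membrane rather than freely secreted, pairs with the product of Lta and is best known from lymphoid tissue inducer cells that seed lymph nodes. Il12a encodes the subunit that forms IL-12 with the product of Il12b, and Tgfb1 encodes a latent cytokine that restrains many lymphocytes once activated.

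The libraries held 716 ILCpro_KO, 1829 ILCpro_WT and 810 ALP cells after filtering, with 4384061, 6094683 and 4115605 UMIs. The median cell had 5309 UMIs in ILCpro_KO, 2897 in ILCpro_WT and 4544.5 in ALP. Tcf7 stood at 57.3 CPM (UMIs scaled to a library total of 1e6; 95% Poisson interval 50.4 to 64.8) in ILCpro_KO, 362 (347 to 378) in ILCpro_WT and 1.46 (0.535 to 3.17) in ALP. Which exons the null allele lacks is not stated in the labels, and 3' tags outside a deleted stretch check nothing. Tcf7 is overlapped by 2 annotated genes, Gm26551 on the same strand and A630014C17Rik on the other strand. Whether reads of Gm26551 enter the Tcf7 count was not tested. Joint clustering without the 7 genes and without cell type markers gave 14 clusters. Cells in 5 clusters led by genes of other lineages made up 30.7% of ILCpro_KO, 6.56% of ILCpro_WT and 2.96% of ALP, and values without them are given for Ccl5, Ltb and Il12a. The ALP cells had Flt3 at 344 CPM and Il7r at 187 CPM in their main cluster, the receptors of their gate. Libraries shared at most 4 cell barcodes.

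Ccl5 was abundant in ILCpro_WT, lower in ILCpro_KO and close to absent in ALP. Ccl5 (ENSMUSG00000035042) lies on the minus strand of chromosome 11, from 83525778 to 83530518 in GRCm38. It stood at 255 CPM (239.8 to 269.9; 1116 UMIs) in ILCpro_KO and 1267 CPM (1239 to 1296; 7723 UMIs) in ILCpro_WT, against 3.64 CPM (2.04 to 6.01; 15 UMIs) in ALP. No 2 of these intervals overlap. The level was 4.98-fold lower (conditional binomial interval 4.67 to 5.31) in ILCpro_KO than in ILCpro_WT, a log2 ratio of -2.27 with 10 CPM added to both levels. ILCpro_WT was 348-fold higher (211 to 622) than ALP, a log2 ratio of 6.55 that ranked 1 of the 9616 genes with at least 5 CPM in either library. ILCpro_KO, measured against the same ALP library, stood 69.8-fold higher (42.2 to 125). The ratio of ILCpro_WT to ALP depends on the added constant, with log2 values of 8.09 at 1 CPM and 4.62 at 50 CPM, and was 4.28 without cells that held more than 5 Ccl5 UMIs.

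**Figure D1:**
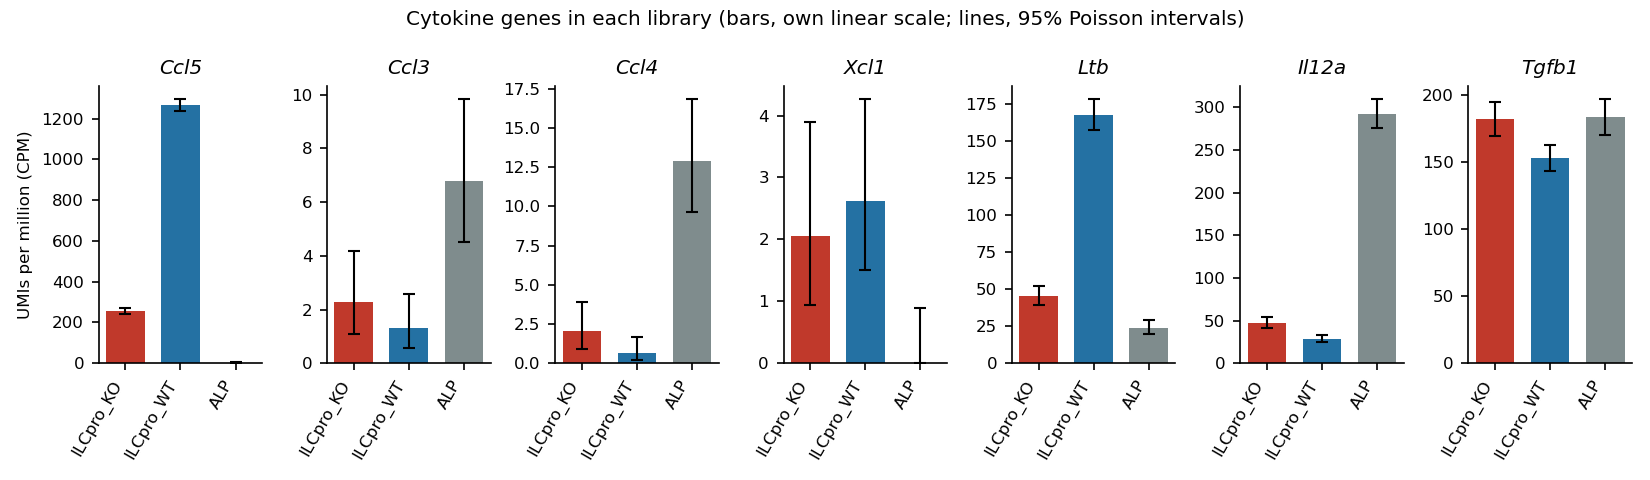
Level of each of the 7 genes (CPM, y axis, a separate linear scale for each gene) in ILCpro_KO, ILCpro_WT and ALP; bars are levels of 1 library and lines 95% Poisson intervals. Ccl5 and Ltb are highest in ILCpro_WT, at 1267 and 167 CPM, and Il12a in ALP, at 292 CPM.

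Most of the Ccl5 UMIs sat in a minority of the cells. Without thinning, 141 of 716 ILCpro_KO cells, 867 of 1829 ILCpro_WT cells and 7 of 810 ALP cells held a Ccl5 UMI. More than 5 UMIs were counted in 40 ILCpro_KO cells and in 309 ILCpro_WT cells, and these cells held 84.0% of the Ccl5 UMIs of ILCpro_KO and 85.9% of those of ILCpro_WT. The highest single cell held 68 UMIs in ILCpro_KO, 116 in ILCpro_WT and 8 in ALP. The 10% of cells with most Ccl5 held 93.3% of its UMIs in ILCpro_KO and 71.4% in ILCpro_WT, so a smaller fraction of the ILCpro_KO cells carried nearly all of the transcript. The ratio of variance to mean of Ccl5 UMIs per cell was 29.8 in ILCpro_KO and 25.8 in ILCpro_WT, whereas that of Tgfb1 was 1.48 and 1.14. In ALP 1 cell held 8 of the 15 UMIs. It lay in the main ALP cluster and held UMIs of 4 of the early lymphoid markers, 1 NK marker and 1 T cell marker.

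**Figure D2:**
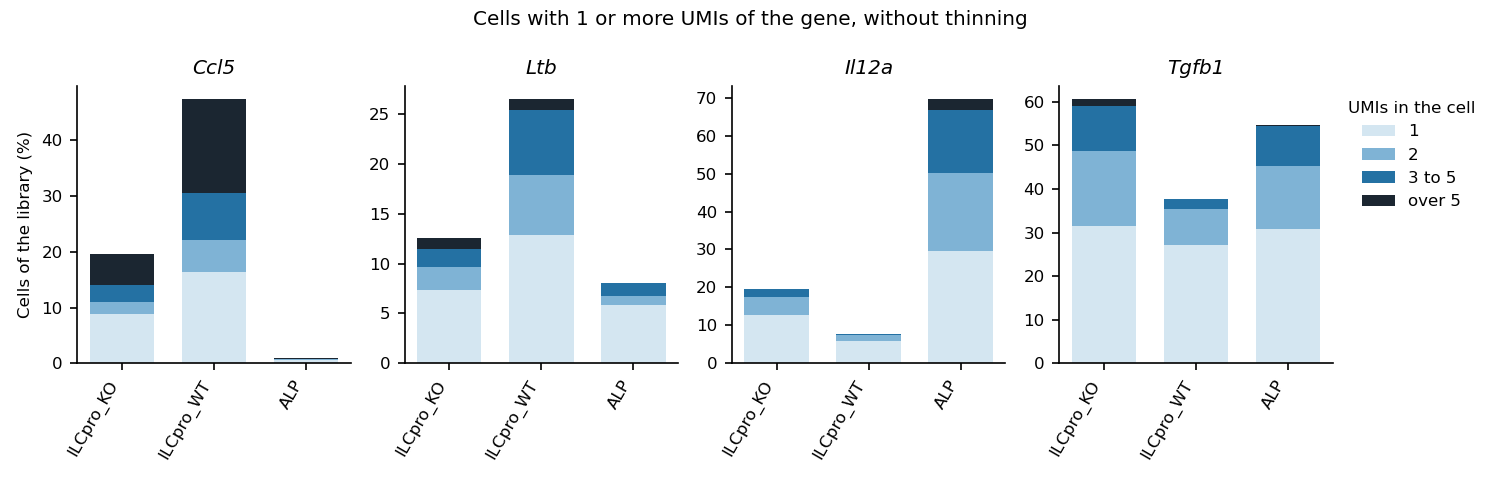
Share of each library's cells (y axis, percent) that held 1, 2, 3 to 5 or over 5 UMIs of Ccl5, Ltb, Il12a and Tgfb1, without thinning; ILCpro_WT cells are the shallowest. For Ccl5 the class of over 5 UMIs holds 40 ILCpro_KO and 309 ILCpro_WT cells.

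To remove the difference in depth, each cell was thinned to 1000 UMIs, and 4 shallower ILCpro_WT cells were left out. A Ccl5 UMI was then found in 9.78% (Clopper-Pearson interval 7.70 to 12.2) of ILCpro_KO cells, 32.4% (30.2 to 34.6) of ILCpro_WT cells and 0.123% (0.00313 to 0.686) of ALP cells. The unthinned shares were 19.7% in ILCpro_KO, 47.4% in ILCpro_WT and 0.864% in ALP. For comparison, thinned cells in the clusters of other lineages were counted as well. A Ccl5 UMI was found there in 1.82% (0.498 to 4.59) of 220 ILCpro_KO cells and in 9.24% (4.71 to 15.9) of 119 ILCpro_WT cells. The cells with one, 4 in ILCpro_KO and 11 in ILCpro_WT, all lay in the conventional DC-like cluster 7. These shares are therefore not a background of cells known to lack the gene. Cells of other lineages had a median depth of 5360.5 UMIs in ILCpro_KO and 3110.5 in ILCpro_WT. The medians of all cells were close, 5309 and 2897. The shares of the whole libraries lay above those of the other lineages.

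Within ILCpro_WT the level of Ccl5 differed widely between clusters. It was highest in cluster 0, led by Lmo4, Cacna1e and Rora, at 3368 CPM (3275 to 3462) in 548 cells. Rora encodes a nuclear receptor needed for group 2 ILCs. Cluster 3, led by Fgf3, Tnni1 and Nrp2, stood at 1362 CPM (1295 to 1431). Cluster 8, led by Pf4 and Kmt2d, followed at 845 CPM, cluster 9, led by Stab2 and Klrd1 with Icos and Arg1 among its 10 leading genes, at 707 CPM, and cluster 6, led by Bhlhe41 and Asb2, at 666 CPM. The intervals of these last 3 overlap one another for neighbours in that order (753 to 944, 620.1 to 802 and 539.9 to 812 CPM). Cluster 1, led by Nfil3 and Egln3 with the mast cell protease Cpa3 among its 10 leading genes, stood at 259 CPM (231 to 289.7), and the cycling cluster 4 at 177 CPM (151 to 205). Cluster 0 held 29.96% of the cells and 64.5% of the Ccl5 UMIs of ILCpro_WT, and cluster 3 held 19.8% and 20.2%.

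**Figure D3:**
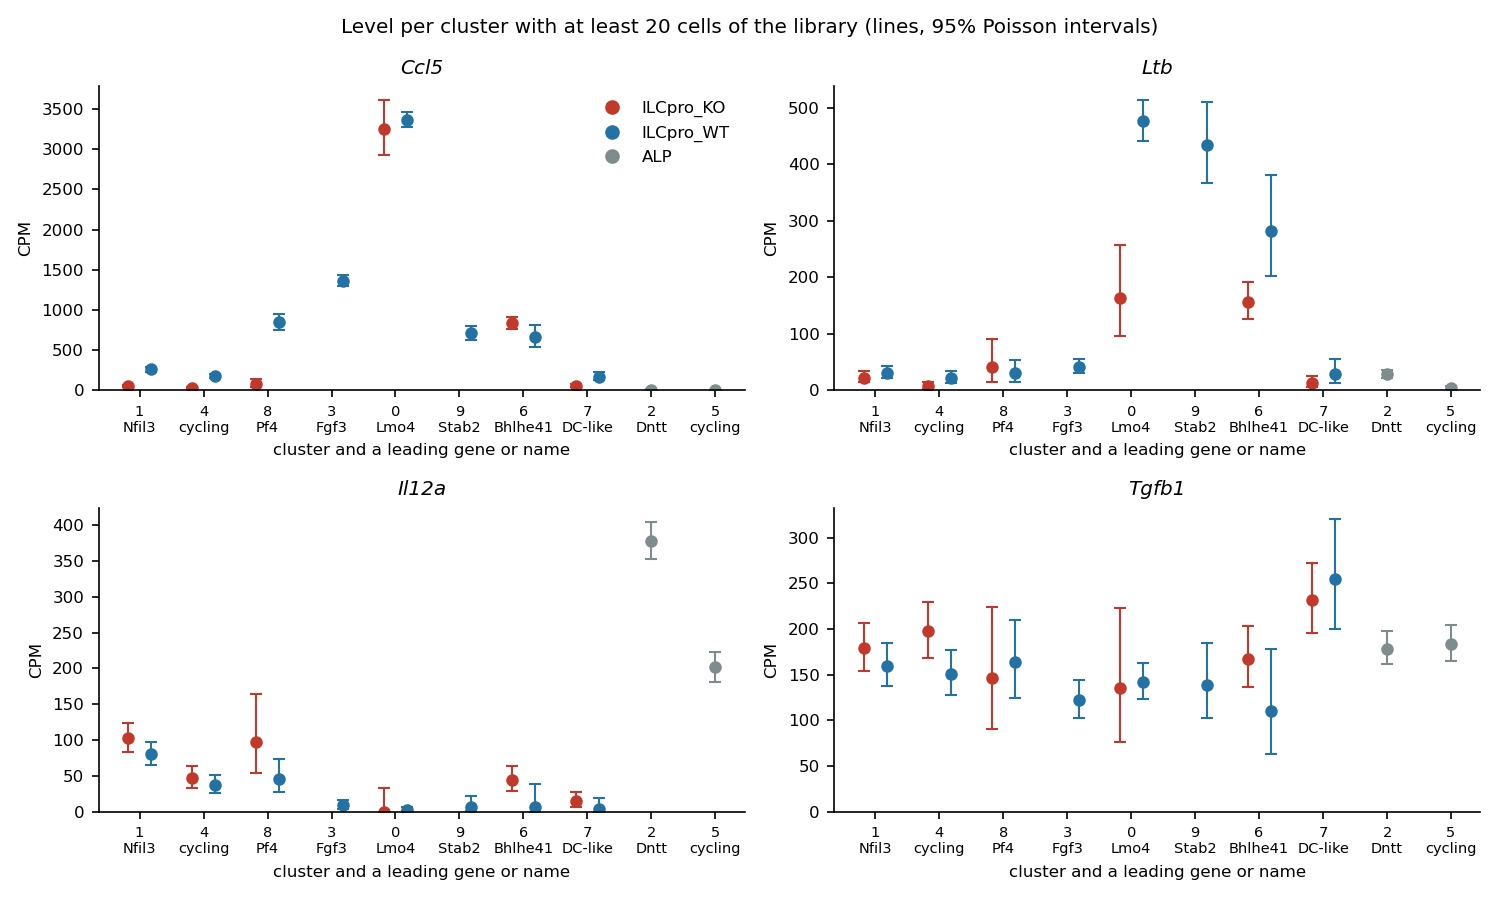
Level (CPM, y axis, linear, own scale for each gene) of Ccl5, Ltb, Il12a and Tgfb1 in each cluster of ILCpro_KO (red), ILCpro_WT (blue) and, for clusters 2 and 5, ALP (grey), where the library has at least 20 cells in it; lines are 95% Poisson intervals. Ccl5 of ILCpro_KO and ILCpro_WT lies close together in cluster 0, at 3254 and 3368 CPM, and apart in cluster 8, at 76.7 and 845 CPM.

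A low amount of Ccl5 was also counted in cells of other lineages. The conventional DC-like cluster 7 stood at 57.9 CPM in ILCpro_KO and 168 CPM in ILCpro_WT, and the clusters of other lineages without it at 3.71 CPM (0.765 to 10.8; 116 cells) in ILCpro_KO and 46.6 CPM (18.7 to 96.0; 33 cells) in ILCpro_WT. Leaving out cells with more than 5 UMIs brought ILCpro_WT to 114 CPM in cluster 1, 100.3 in cluster 4 and 97.7 in cluster 7, and ILCpro_KO to 39.9, 19.7 and 24.1 CPM in the same clusters. The part of free RNA in these low levels was not tested. Cells with more than 5 UMIs held 174 of the 311 Ccl5 UMIs of ILCpro_WT cluster 1, in 11 of 369 cells.

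Ccl5 is also a gene of NK and T cells, and their markers were read in the clusters that carry it. In cluster 0, 6 of 12 NK markers had a UMI in ILCpro_KO and 9 of 12 in ILCpro_WT. Their summed level was 1094 CPM in ILCpro_KO and 646 CPM in ILCpro_WT, where Nkg7 alone stood at 584 CPM. In ILCpro_KO Ncr1, Gzma, Eomes, Tbx21, Nkg7 and Il2rb had a UMI, and Klrb1c, Klrd1, Klre1, Klrk1, Gzmb and Prf1 had 0. In ILCpro_WT Gzma, Gzmb and Prf1 had 0. Of 8 T cell markers, 3 had a UMI there in ILCpro_KO and 7 in ILCpro_WT, at 145 and 141 CPM in sum. Those at 0 were Cd3d, Cd3e, Cd8a, Cd8b1 and Themis in ILCpro_KO and Cd3e in ILCpro_WT. Cluster 0 held 23 ILCpro_KO and 548 ILCpro_WT cells, so the numbers of markers with a UMI cannot be compared between the libraries. Whether NK or T cells are among these cells was not tested. Without cells that held 2 or more NK or T cell markers the log2 ratio of ILCpro_KO to ILCpro_WT was -2.45. The T cell-like cluster 12, which held 23 ILCpro_KO cells and no other cells, had 0 Ccl5 UMIs, which allows a share of up to 13.0% of cells with a UMI and sets no limit on cells that express the gene below detection.

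The libraries differed in how many of their cells and of their Ccl5 UMIs each cluster held. Cluster 0 held 23 of the ILCpro_KO cells and 548 of the ILCpro_WT cells, and cluster 3 held 19 ILCpro_KO and 362 ILCpro_WT cells. In ILCpro_KO, 32.3% of the Ccl5 UMIs lay in the 23 cells of cluster 0 and 46.5% in the 142 cells of cluster 6, a cluster that held 1.26% of the Ccl5 UMIs of ILCpro_WT. Within cluster 0 Ccl5 stood at 3254 CPM (2927 to 3609) in ILCpro_KO and 3368 CPM in ILCpro_WT, a ratio of 0.966 (0.866 to 1.08). Tcf7 in those same cells stood at 199 CPM in ILCpro_KO and 573 CPM in ILCpro_WT. Within cluster 6 Ccl5 stood at 837 CPM (767 to 912) in ILCpro_KO and 666 CPM in ILCpro_WT, a ratio of 1.26 (1.01 to 1.58). It was lower in ILCpro_KO in cluster 1, at 48.7 and 259 CPM (ratio 0.188, 0.136 to 0.254), in cluster 4, at 29.0 and 177 CPM (0.164, 0.103 to 0.251), in cluster 8, at 76.7 and 845 CPM (0.0908, 0.0448 to 0.165), and in cluster 7, at 57.9 and 168 CPM (0.346, 0.218 to 0.544).

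**Figure D4:**
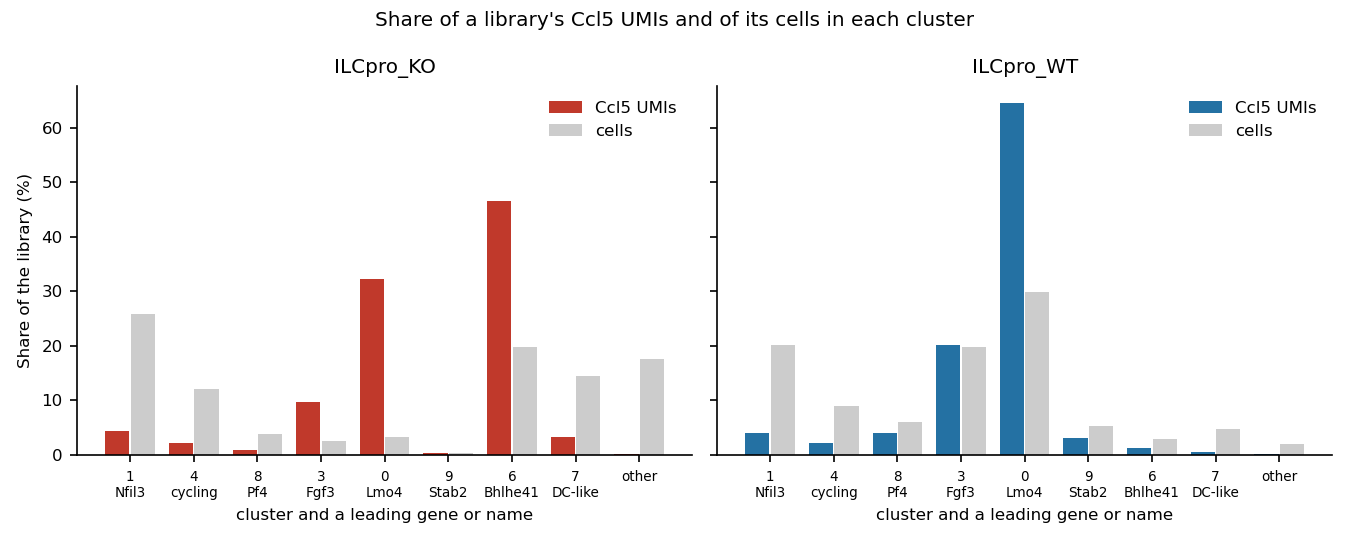
Share of a library's Ccl5 UMIs (coloured bars) and of its cells (grey bars) in each cluster (y axis, percent), for ILCpro_KO (left) and ILCpro_WT (right). Cluster 0 holds 32.3% of the UMIs in 3.21% of the ILCpro_KO cells and 64.5% in 29.96% of the ILCpro_WT cells, and cluster 6 holds 46.5% of the UMIs of ILCpro_KO.

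With both libraries given the same cluster makeup, the log2 ratio of Ccl5 was smaller in size. Over the 6 clusters with at least 20 cells of both libraries, the log2 ratio of ILCpro_KO to ILCpro_WT was -2.13 as measured. It was -0.50 when the ILCpro_WT levels were weighted by the ILCpro_KO makeup, and -0.22 when the ILCpro_KO levels were weighted by the ILCpro_WT makeup. This reweighting was added after the data were seen. It rests on 23 ILCpro_KO cells in cluster 0 and leaves out cluster 3, where 19 ILCpro_KO cells held 108 Ccl5 UMIs. Cluster 9, with 2 ILCpro_KO and 98 ILCpro_WT cells, is left out as well. Clusters were drawn without integration from 1 library per group, so makeup and genotype cannot be told apart. Whether makeup accounts for the difference was not tested. Without the clusters of other lineages the difference was smaller but stayed past 2-fold, at 365 CPM in ILCpro_KO and 1355 CPM in ILCpro_WT, a log2 ratio of -1.87.

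Stage was also read from single genes, as the level of Ccl5 in thinned ILCpro_WT cells with and without a UMI of each of 17 stage genes. Ccl5 was higher with some of these genes and lower with others. It stood at 3162 CPM with Lmo4, a transcriptional cofactor, and 797 CPM without it, a ratio of 3.97 (3.67 to 4.29). With and without Rora it stood at 2962 and 865 CPM, a ratio of 3.42 (3.17 to 3.70), and with and without Tox2, a relative of the ILC factor Tox, at 3014 and 1143 CPM. It was lower in cells with Flt3, the receptor of early progenitors, at 207 against 1524 CPM, with Nfil3, an early ILC factor, at 555 against 1564 CPM, and with Cpa3, at 754 against 1584 CPM. The intervals of the ratio included 1 for Icos (0.939 to 1.37) and Arg1 (0.969 to 1.44), genes used to mark ILC2. Tox2 and Nfil3 are both on the marker list of early ILC progenitors used here, so these splits give no plain order from early to late. A split on unthinned UMIs moved the ratio for Rora to 5.81. In ILCpro_KO 25 thinned cells held a Rora UMI, and their Ccl5 stood at 3080 CPM, against 291 CPM in the ILCpro_KO cells without one.

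**Figure D5:**
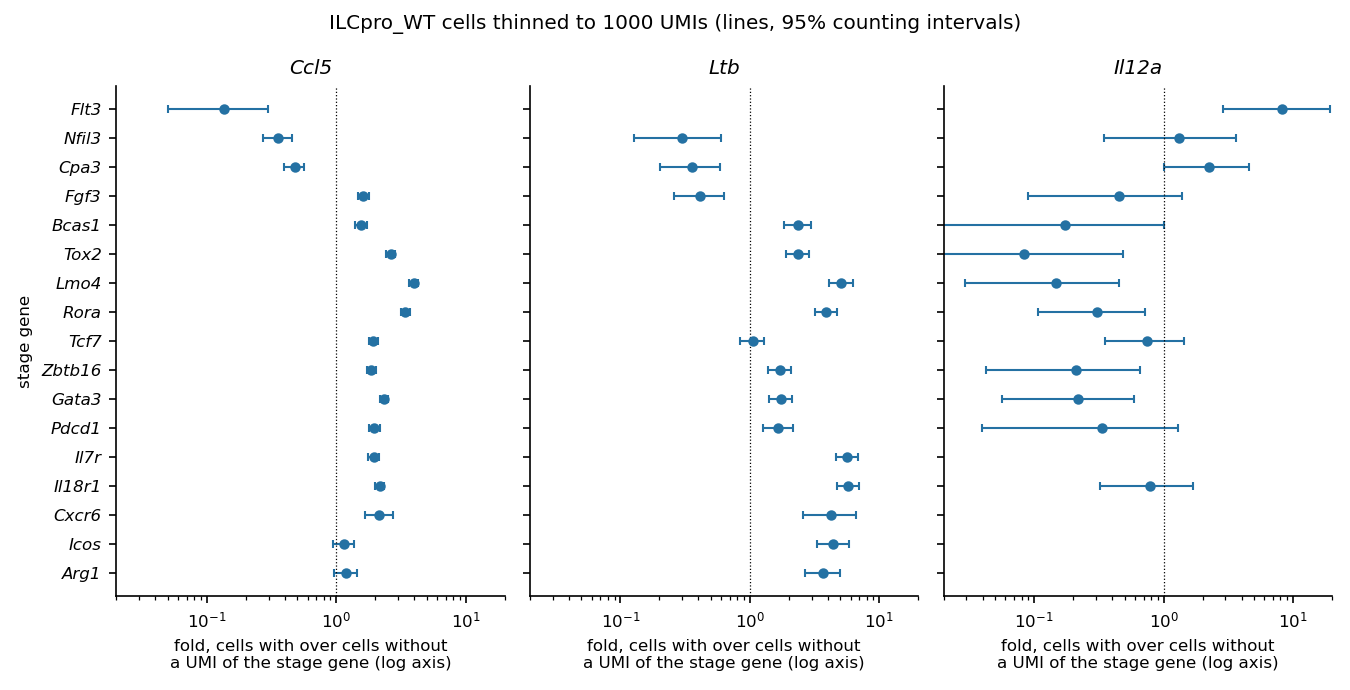
Level of Ccl5, Ltb and Il12a in ILCpro_WT cells with a UMI of a stage gene over that in cells without one (x axis, fold, log scale), each cell thinned to 1000 UMIs; points are ratios and lines 95% counting intervals, and stage genes with 0 UMIs of the cytokine in the cells that have them are left out. Ccl5 and Ltb lie right of 1 for Lmo4 and Rora, and Ltb lies left of 1 for Fgf3, at 0.411, where Ccl5 is at 1.62.

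Ltb had the same order of libraries as Ccl5 but another order of clusters. Ltb (ENSMUSG00000024399) lies on the plus strand of chromosome 17, from 35194439 to 35196320, and contains the miRNA gene Mir6973a. It stood at 45.2 CPM (39.1 to 51.9) in ILCpro_KO and 167 CPM (157 to 178) in ILCpro_WT, against 24.1 CPM (19.6 to 29.3) in ALP. It was 3.71-fold lower (3.18 to 4.34) in ILCpro_KO than in ILCpro_WT, and ILCpro_WT was 6.96-fold higher (5.66 to 8.64) than ALP, a log2 ratio of 2.38 that was 1.55 with 50 CPM added and 2.81 without the clusters of other lineages. Thinned cells had an Ltb UMI in 4.61% (3.19 to 6.41) of ILCpro_KO, 14.2% (12.7 to 15.9) of ILCpro_WT and 2.96% (1.91 to 4.38) of ALP cells, or 12.6%, 26.5% and 8.02% without thinning. In the clusters of other lineages the thinned share was 3.18% (1.29 to 6.45) in ILCpro_KO, where it cannot be set apart from the share over all cells by its interval, and 5.04% (1.87 to 10.7) in ILCpro_WT. A group of 22 ALP cells in such clusters, B-like cells among them, held 31 of the 99 Ltb UMIs of ALP.

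The bases before the annotated start of Ltb are shown because its promoter is a textbook target of NF-kB factors (RefSeq promoter table, GRCm38.p6, chr17:35194257-35194438, plus strand, 5′ to 3′, capitals marking the consensus kappa-B motif of NF-kB on the reverse strand):
Ltb: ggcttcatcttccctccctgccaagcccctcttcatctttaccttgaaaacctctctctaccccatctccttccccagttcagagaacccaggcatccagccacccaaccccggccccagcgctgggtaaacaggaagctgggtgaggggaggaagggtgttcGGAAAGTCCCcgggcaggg
Both strands were searched for this 10-letter motif, which is in 0.0945% of the 32817 RefSeq windows cut to 182 bases. Searched as well were CTTTGA (in 10.9% of windows), then CTTTGT (12.4%), both letters of TCF and LEF factors, and TGTGGT (10.6%), letters of Runx factors. None of these 3 was in this window, and the single match overlaps no other. A match is a string of letters and not a measured site. The NF-kB genes Rel, Rela and Nfkb1 stood at 60.4, 22.6 and 394 CPM in ILCpro_KO, 36.8, 22.0 and 264 CPM in ILCpro_WT and 70.5, 23.1 and 85.5 CPM in ALP.

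Over ILCpro_WT clusters Ltb stood at 477 CPM (442 to 513) in cluster 0, 435 CPM (367 to 511) in cluster 9 and 281 CPM (202 to 382) in cluster 6. It stood at 41.1 CPM (30.2 to 54.6) in cluster 3, where Ccl5 was at 1362 CPM. Ltb was thus high in cluster 0 but low in the cluster led by Fgf3. In thinned ILCpro_WT cells it was higher with Il18r1 (5.72-fold, 4.70 to 6.97) and Il7r (5.61-fold, 4.61 to 6.83), receptors for interleukins that ILC precursors use. With Icos it was 4.41-fold higher (3.32 to 5.79) and with Fgf3 2.43-fold lower (1.60 to 3.88), whereas Ccl5 was 1.62-fold higher with Fgf3 (1.47 to 1.78). Within clusters Ltb was lower in ILCpro_KO in cluster 0, with 163 against 477 CPM (ratio 0.341, 0.201 to 0.544), as well as cluster 6, with 156 against 281 CPM (0.556, 0.382 to 0.822). The cycling cluster 4 had 6.97 CPM in ILCpro_KO and 21.7 CPM in ILCpro_WT (0.321, 0.106 to 0.822). In clusters 1, 7 and 8 the intervals included 1. Reweighted to 1 cluster makeup its log2 ratio was -0.80 at the ILCpro_KO makeup and -1.27 at the ILCpro_WT makeup, against -1.68 over the whole libraries, so at the ILCpro_KO makeup it no longer reached 2-fold.

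Il12a had the reverse order and was highest in ALP, the earlier cells. Il12a (ENSMUSG00000027776; chromosome 3, 68690644 to 68698547, plus strand) stood at 47.2 CPM (41.0 to 54.1) in ILCpro_KO and 28.4 CPM (24.3 to 32.9) in ILCpro_WT, against 292 CPM (276 to 309) in ALP. It was 10.3-fold lower (8.77 to 12.1) in ILCpro_WT than in ALP and, measured against the same library, 6.19-fold lower (5.34 to 7.21) in ILCpro_KO. ILCpro_KO was 1.66-fold higher (1.35 to 2.05) than ILCpro_WT. Thinned cells had an Il12a UMI in 6.28% (4.62 to 8.32) of ILCpro_KO, 2.58% (1.90 to 3.41) of ILCpro_WT and 25.4% (22.5 to 28.6) of ALP cells, or 19.6%, 7.60% and 69.6% without thinning. In clusters of other lineages these were 0.909% (0.110 to 3.25) of 220 ILCpro_KO cells and 0 of 119 ILCpro_WT cells, which allows up to 2.52% of cells with a UMI at this depth, while 10 of 220 ILCpro_KO and 3 of 120 ILCpro_WT cells held one without thinning. On the thinned counts the log2 ratio of ILCpro_KO to ILCpro_WT was 1.10, past 2-fold, against 0.58 over all UMIs, and it was 0.94 without the clusters of other lineages.

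The bases before the first of 2 listed starts of Il12a are shown because Il12a had the lowest log2 ratio of ILCpro_WT to ALP of the 7 genes, -2.98, and its window holds a TCF motif (RefSeq promoter table, GRCm38.p6, chr3:68690394-68690643, plus strand, 5′ to 3′, capitals marking CTTTGT):
Il12a: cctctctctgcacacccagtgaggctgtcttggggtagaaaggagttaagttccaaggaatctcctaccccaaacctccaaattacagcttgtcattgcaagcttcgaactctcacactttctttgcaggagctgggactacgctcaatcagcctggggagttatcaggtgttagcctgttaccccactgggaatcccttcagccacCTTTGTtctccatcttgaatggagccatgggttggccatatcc
CTTTGT was found in 16.5% of the 32817 windows of 250 bases, and none of the other 3 motifs was in this one. The window before the second start, chr3:68691174-68691423, held TGTGGT, which was in 14.0% of windows. The windows of Xcl1 and Ccl3 also held TGTGGT, and that of Tgfb1 held none of the motifs. CTTTGT was in no other window of these genes, and this window was picked for its match. No match says anything of binding.

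Il12a was spread over most ALP cells rather than held by a few. It stood at 378 CPM (352 to 404) in cluster 2, the early lymphoid-like cluster led by Dntt with 529 ALP cells, and at 201 CPM (181 to 223) in cluster 5, which held 246 cycling ALP cells. Among clusters with at least 20 cells of an ILCpro library it was highest in cluster 1, where ILCpro_KO had 102 CPM (83.6 to 124) and ILCpro_WT 80.0 CPM (64.8 to 97.7). In cluster 0 it had 0 UMIs in ILCpro_KO and stood at 2.70 CPM (0.737 to 6.92) in ILCpro_WT. Within clusters the ratio of ILCpro_KO to ILCpro_WT was 1.28 (0.960 to 1.70) in cluster 1 and 1.25 (0.776 to 2.02) in cluster 4, and both intervals include 1. In cluster 6 it was 6.34 (1.05 to 259.8), from 27 UMIs in ILCpro_KO and 1 in ILCpro_WT. In thinned ILCpro_WT cells Il12a was 8.26-fold higher (2.88 to 19.4) with Flt3 and 6.81-fold lower (2.20 to 34.2) with Lmo4.

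Tgfb1 varied least of the 4 abundant genes. Tgfb1 (ENSMUSG00000002603; chromosome 7, 25687002 to 25705077, plus strand) stood at 182 CPM (169 to 195) in ILCpro_KO and 153 CPM (143 to 163) in ILCpro_WT, against 183 CPM (170.4 to 197) in ALP. ILCpro_KO was 1.19-fold higher (1.08 to 1.31) than ILCpro_WT, which was 1.20-fold lower (1.09 to 1.32) than ALP. Over the clusters with at least 20 cells of ILCpro_WT it ran between 109.8 CPM in cluster 6 and 255 CPM in the conventional DC-like cluster 7. The T cell-like cluster of ILCpro_KO was lower, with 2 UMIs at 19.7 CPM (2.39 to 71.3). Thinned shares were 17.3% (14.6 to 20.3) in ILCpro_KO, 14.5% (12.9 to 16.2) in ILCpro_WT and 16.7% (14.2 to 19.4) in ALP. The ratio of ILCpro_KO to ILCpro_WT was 1.31 (1.04 to 1.64) in cluster 4, and in the other 5 clusters compared its interval included 1. Split by a stage gene, the intervals included 1 for all 17 genes, Lmo4 (0.971, 0.746 to 1.25) and Rora (1.08, 0.833 to 1.38) among them.

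Ccl3, Ccl4 and Xcl1 were rare transcripts in all 3 libraries. Ccl3 (ENSMUSG00000000982, GRCm38 chromosome 11, 83647844 to 83649355, minus strand) had 10 UMIs (2.28 CPM, 1.09 to 4.19) in ILCpro_KO, 8 (1.31 CPM, 0.567 to 2.59) in ILCpro_WT, while ALP held 28 (6.80 CPM, 4.52 to 9.83). Ccl4 (ENSMUSG00000018930, GRCm38 chromosome 11, 83662584 to 83664683, plus strand) had 9 UMIs (2.05 CPM, 0.939 to 3.90) in ILCpro_KO, 4 (0.656 CPM, 0.179 to 1.68) in ILCpro_WT, while ALP held 53 (12.9 CPM, 9.65 to 16.8). These genes, neighbours of Ccl5 on chromosome 11, were thus highest in ALP, where Ccl5 was lowest. Ccl4 was 19.6-fold lower (7.23 to 74.7) in ILCpro_WT than in ALP, and Ccl3 5.18-fold lower (2.30 to 13.2). The log2 ratio of Ccl4 was -1.10, and it was -0.31 with 50 CPM added and -3.07 with 1 CPM, while that of Ccl3 was -0.57 and reached -1.75 with 1 CPM. In ALP 68 cells held a UMI of either gene, 6 of them of both, and no cell held more than 2 UMIs of 1 of them. The 20 immediate early and NF-kB genes summed to 674 CPM (590 to 767) in those ALP cells and 551 CPM (528 to 576) in the other ALP cells. Thinned shares of Ccl4 were 0.419% (0.0865 to 1.22) in ILCpro_KO, 0 of 1825 cells in ILCpro_WT, which allows up to 0.164% of cells with a UMI at this depth, and 2.35% (1.42 to 3.64) in ALP. The unthinned shares were 1.26% in ILCpro_KO, 0.164% in ILCpro_WT and 6.05% in ALP.

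Xcl1 (ENSMUSG00000026573, GRCm38 chromosome 1, 164931644 to 164935527, minus strand, overlapped by Gm20743 on the other strand) had 9 UMIs (2.05 CPM, 0.939 to 3.90) in ILCpro_KO, 16 (2.63 CPM, 1.501 to 4.26) in ILCpro_WT and 0 in ALP. The 95% lower limit of the ratio to ALP was 1.85 for ILCpro_KO and 2.60 for ILCpro_WT. Cluster 9 held 11 of the 16 UMIs of ILCpro_WT, 6 of them in 1 cell, and cluster 6 held 6 of the 9 of ILCpro_KO. Eomes and Klrd1, genes of NK cells, are among the leading genes of cluster 9. There 10 of 12 NK markers had a UMI in ILCpro_WT, with Gzmb and Prf1 at 0, at 884 CPM in sum. This was not particular to cluster 9. In ILCpro_WT 9 of 12 had a UMI in cluster 0, at 646 CPM in sum, and 9 of 12 in cluster 3, at 494 CPM. Cluster 9 is unnamed, and 5 of 10 markers of ILC precursors were at least 2-fold higher in it than in all other cells.

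Counted together, 4 of the 7 genes had at least 5 CPM in ILCpro_KO or ILCpro_WT. Of these, Ccl5 and Ltb were at least 2-fold lower in ILCpro_KO and 0 were at least 2-fold higher, where 0.869% of the 9551 genes measured were 2-fold lower and 1.48% 2-fold higher. Between ILCpro_WT and ALP 6 of the 7 were measured. Ccl5 and Ltb were at least 2-fold higher and Il12a and Ccl4 at least 2-fold lower in ILCpro_WT, where 2.11% of 9616 genes were higher and 3.06% lower. Between ILCpro_KO and ALP, which share libraries with the other comparisons, 1 of 6 was at least 2-fold higher (Ccl5) and 1 lower (Il12a), where 2.01% of 9644 genes were higher and 1.43% lower. The genes were chosen by these levels, so nothing is read from the counts. The medians of all genes were 0.09 and -0.07 on the log2 scale.

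Ccl5 and Ltb were found together in 11 of the 716 thinned ILCpro_KO cells and 116 of the 1825 thinned ILCpro_WT cells. In ILCpro_KO, Ltb was found in 15.7% of the 70 cells with Ccl5 and 3.41% of those without. In ILCpro_WT it was found in 19.6% of the 591 cells with Ccl5 and 11.7% of those without. Il12a had the opposite arrangement in ILCpro_WT, with a UMI in 1.02% of cells with Ccl5 and 3.32% of those without, and 6 cells held both.

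The genes whose level was most like that of Ccl5 were named from 15 groups of at least 30 cells of 1 library and 1 cluster, by the Pearson correlation of log2(CPM + 10) over 4400 genes. They were Pdcd1 (r = 0.93), Tcf7 (0.92), Prr13 (0.92), Rora (0.91), Malat1 (0.91), Rinl (0.90), Ctsw (0.90), Atp6v1f (0.90), Zbtb16 (0.89) and Gabarapl2 (0.89). Pdcd1 encodes the inhibitory receptor PD-1 and Zbtb16 the factor PLZF of ILC precursors. The groups share libraries, hold both genotypes and differ in depth, so this is a description. Over single ILCpro_WT cells the correlations were lower, from 0.0086 for Atp6v1f to 0.42 for Rora, the highest. They were 0.27 for Pdcd1 and 0.20 for Tcf7, and 5 of the 10 genes were again among the 10 most alike. Pdcd1 stood at 26.7 CPM in ILCpro_KO, 123 CPM in ILCpro_WT and 2.19 CPM in ALP, and Zbtb16 at 50.6, 271 and 0.243 CPM.

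Partners and receptors of Ltb, Il12a and Tgfb1 were mostly low. Lta, the partner of Ltb, had 0.684, 1.97 and 0.729 CPM in ILCpro_KO, ILCpro_WT and ALP, and the receptor gene Ltbr 15.5, 9.68 and 10.7 CPM. Il12b had 0 UMIs in all 3 libraries, below the floor of 3 UMIs, which is 0.684 CPM in ILCpro_KO, 0.492 in ILCpro_WT and 0.729 in ALP. Ebi3, the other partner of Il12a, had 7.30, 3.61 and 8.50 CPM. Il6st, a receptor chain of the IL-6 family, stood at 13.5 CPM in ILCpro_KO, 4.92 CPM in ILCpro_WT and 59.0 CPM in ALP. Of the 4 measured genes of the IL-12 list it was the 1 at least 2-fold lower in ILCpro_WT than in ALP, and 0 of 4 differed 2-fold between ILCpro_KO and ILCpro_WT. Of the 5 lymphotoxin genes 3 were measured and 0 differed 2-fold in either comparison. Of the 19 TGF-beta genes 11 were measured in each comparison and 0 differed 2-fold in either. Over all genes 0.869% were at least 2-fold lower and 1.48% higher in ILCpro_KO than in ILCpro_WT, and 3.06% lower and 2.11% higher in ILCpro_WT than in ALP. Nrros, which anchors latent TGF-beta 1 on myeloid cells, stood at 230.2 CPM in ILCpro_KO, 117 CPM in ILCpro_WT and 149 CPM in ALP. Furin, which cleaves its precursor, stood at 23.5, 41.2 and 15.8 CPM in that order.

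Other cytokines showed what else the cells transcribed. Of 34 other chemokine genes 21 had 0 UMIs, and Ccl9 and Ccl6 were the 2 that reached 20 CPM. Ccl9 stood at 35.8 CPM in ILCpro_KO, 4.59 CPM in ILCpro_WT and 21.1 CPM in ALP, and Ccl6 at 21.0, 3.28 and 2.67 CPM. Both are chemokines of myeloid cells, and 11 of 11 neutrophil and monocyte markers had a UMI in ILCpro_KO, at 4448 CPM in sum, against 9 of 11 at 456 CPM in ILCpro_WT, where Ngp and Camp were at 0. Their part in the chemokine levels was not tested. Il16 was the single one of 32 other interleukin genes above 20 CPM, at 44.7 CPM in ILCpro_KO, 42.2 CPM in ILCpro_WT and 84.8 CPM in ALP. Mif, a broadly made cytokine, stood at 790.1, 808 and 618 CPM. Among granule genes Nkg7, a protein of cytotoxic granules, stood at 402 CPM in ILCpro_KO, 361 CPM in ILCpro_WT and 117 CPM in ALP. Gzma, a granule protease, was the 1 of 4 measured granule genes at least 2-fold higher in ILCpro_KO, at 31.0 CPM against 2.46 CPM in ILCpro_WT and 0 UMIs in ALP, and it is among the leading genes of the T cell-like cluster. Of 12 measured immediate early and NF-kB genes Fos, at 31.5 CPM in ILCpro_KO and 9.84 CPM in ILCpro_WT, was at least 2-fold higher in ILCpro_KO. Of all genes 1.48% were at least 2-fold higher in ILCpro_KO. Fos and Cd69, an early activation marker, were the 2 of 14 at least 2-fold lower in ILCpro_WT than in ALP, where 3.06% of all genes were, with Cd69 at 6.23 CPM in ILCpro_WT and 99.9 CPM in ALP.

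Transcription factors that could bear on these genes were listed by name. Of 16, 15 were measured between ILCpro_KO and ILCpro_WT, and Tcf7, Rora, Gata3 and Ets1 were at least 2-fold lower in ILCpro_KO, where 0.869% of all genes were, with a list median of -0.13 against 0.09 for all genes. Between ILCpro_WT and ALP 7 of 15 were at least 2-fold higher in ILCpro_WT, where 2.11% of all genes were, with a median of 0.93 against -0.07. Runx3, which T and NK cells need for cytotoxic genes, stood at 619.5 CPM in ILCpro_KO, 694 CPM in ILCpro_WT and 92.6 CPM in ALP. Klf13, known from human T cells as an activator of CCL5 transcription, stood at 84.2, 68.4 and 46.4 CPM. Gata3 stood at 75.3, 339 and 29.6 CPM. Ets1 stood at 24.9, 113 and 49.6 CPM.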

How the data were processed

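Single cells were profiled with 10x Chromium v2 libraries, 1 each for ILCpro_KO, ILCpro_WT and ALP. The authors deposited raw UMI counts per gene and barcode, whole numbers that were not normalized. Per the submitters' processing notes, the tools included Cell Ranger 2.0.1 with STAR 2.5.1b and bcl2fastq 2.17, and the build was mm10; how cells were called is not given in the sources used here. The deposited tables held 716, 1834 and 812 barcodes in the order ILCpro_KO, ILCpro_WT and ALP.

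Cells with at least 500 genes and at most 10% mitochondrial UMIs were kept. UMIs were summed per library or cluster and scaled to CPM. Log2 ratios had 10 CPM added to both levels, folds are plain ratios, and a gene counts as measured with at least 5 CPM in either library. Shares have Clopper-Pearson intervals, levels exact Poisson and ratios conditional binomial ones, all at 95% and for counting error only, and with 1 library per group no test was run. The ratio code was checked on simulated counts. Shares used cells thinned to 1000 UMIs. A count of 0 is bounded by 3 counts.

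Clusters come from a joint Leiden run over all libraries (scanpy 1.11.5, leidenalg 0.10.2, resolution 1, 15 neighbours, 30 components, 2000 variable genes, 10000 counts per cell, no integration), leaving out 537 genes, among them the cytokines and the markers, and genes of the ribosome, mitochondria, cell cycle and sex chromosomes. A cluster was named only where a type had at least 3 markers 2-fold higher and at least as many among the 10 leading genes as any other type; otherwise it goes by number and leading genes. Cluster 11, led by basophil proteases and haemoglobin genes, is left unnamed for that mixture, a choice made after the data were seen. A cluster counts as another lineage with at least 3 markers of one among its 10 leading genes. Doublets scored with Scrublet (4 ILCpro_KO, 27 ILCpro_WT and 5 ALP cells) were kept, and an alternative removed them. Gene positions are from GENCODE vM21 (GRCm38, the assembly of mm10), matched on Ensembl identifiers, and promoters from RefSeq (GRCm38.p6), which had entries for Xcl1, Il12a, Tgfb1, Ccl3 and Ltb, but not for Ccl5 and Ccl4.

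The 7 genes, the other gene lists and the tests were chosen with earlier results of these data known. Named are the 7 genes, Tcf7, listed genes that reach 20 CPM in a library, the 10 genes most like Ccl5, the 17 stage genes and the 5 genes that lead a cluster; partners and receptors below 20 CPM, single markers and other leading genes were named after their values were seen. The list of chemokine receptors is not reported here.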

Additional observations from a re-analysis of the deposited data

Results flagged for a closer look

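The measured ratio of Ccl5 in ILCpro_KO to ILCpro_WT lay on different sides of 1 in different clusters. It was 1.26 (1.01 to 1.58) in cluster 6, led by Bhlhe41 and Asb2, and below 1 in cluster 1 (0.188), cluster 4 (0.164), cluster 7 (0.346) and cluster 8 (0.0908). With 1 library per group the difference between clusters was not tested. The intervals treat each UMI as independent, whereas Ccl5 UMIs were clumped in cells, so they are too narrow. In cluster 6 more than 5 Ccl5 UMIs were held by 19 ILCpro_KO and 5 ILCpro_WT cells. A ratio above 1 in that cluster is therefore not established. The interval for cluster 6 nearly reaches 1 and rests on 519 UMIs in 142 ILCpro_KO cells and 97 UMIs in 53 ILCpro_WT cells, whereas the ratios of clusters 1, 4 and 8 rest on 50, 25 and 11 UMIs in ILCpro_KO.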

How the results depend on the processing

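The log2 ratio of Ccl5 in ILCpro_KO to ILCpro_WT, -2.27 as reported, kept its sign under every alternative run and stayed past 2-fold under all but the reweighting by clusters. It was -2.11 with 50 CPM added, -2.17 with at least 1000 genes and at most 5% mitochondrial UMIs per cell, -1.94 as a mean of per-cell CPM, -2.39 scaled without ribosomal and mitochondrial genes, -2.39 scaled by the median ratio of genes, -1.87 without other lineages, -2.45 without cells with NK or T cell markers, -1.93 on thinned cells and -2.64 without the top 1% of cells for the gene. Chosen after the data were seen, it was -2.10 without cells with more than 5 Ccl5 UMIs, and -0.50 and -0.22 at the ILCpro_KO and ILCpro_WT cluster makeup. The ratio of ILCpro_WT to ALP, 6.55 as reported, was 8.09 with 1 CPM added, 4.62 with 50 CPM and 4.28 without cells with more than 5 UMIs. The cluster highest in Rora had 3505 CPM of Ccl5 in ILCpro_WT at resolution 1.5, in place of 3368. The ratio of Ccl5 with Rora to without was 5.81 on an unthinned split, in place of 3.42. Of the 10 genes most like Ccl5, 5 were again among the top 10 over single cells. The count of genes at least 2-fold lower in ILCpro_KO was 2 under the 12 alternatives it was made for, which leave out the reweighting by clusters. Under that reweighting Ccl5 was within 2-fold at both makeups. Ltb was within 2-fold at the ILCpro_KO makeup (-0.80) but not at the ILCpro_WT makeup (-1.27), so the count did not hold there. The count of genes higher in ILCpro_WT than ALP was 2 to 3, the higher count with 1 CPM added. Ltb kept its direction in both comparisons under all alternatives run, but was within 2-fold at the ILCpro_KO cluster makeup. No paired analysis was possible because each group is 1 library. The causes of these movements were not tested. Ccl3, Ccl4 and Xcl1 had so few UMIs in ILCpro_KO and ILCpro_WT that a difference between these was not detectable at this depth.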
